A study of Mus musculus with 14 samples.

Results

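The 10 genes described here encode 3 secreted Wnt ligands (Wnt5a, Wnt5b and Wnt10b), 4 Frizzled receptors that bind them (Fzd1, Fzd2, Fzd6 and Fzd7) and 3 co-receptors (Lrp5, Lrp6 and Ror2). They were taken by gene symbol from the 24346 genes of the deposited count table and the 24340 genes of the deposited RPKM table, and all 10 were found in both. The RNA came from MC3T3-E1 cells, an established mouse line of osteoblast precursors, and polyadenylated RNA was sequenced in 14 libraries. Of these, 7 are labelled as knockdown of MACF1, a protein that links actin filaments to microtubules (marked sh in the labels), with 2 libraries at each of days 0, 3 and 5 and 1 library at day 10. The 7 control libraries (marked NC) are spread over the days in the same way, and no other agent or genotype is named for either condition. The event from which the days are counted, and whether the cells of a condition came from 1 or several transduced cultures, are not stated in the labels. The p-values therefore refer to variation among the sequenced libraries, and that variation may be technical only.

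Wnt proteins are lipid-modified and act on neighbouring cells. In the canonical branch a ligand such as Wnt10b brings a Frizzled together with Lrp5 or Lrp6, and beta-catenin then accumulates and acts in the nucleus with TCF and LEF factors. In bone this branch favours the osteoblast lineage, and changes in human LRP5 alter bone mass. Wnt5a and Wnt5b act mostly without beta-catenin, through Frizzleds and the tyrosine kinase Ror2, on cell shape and polarity.

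Promoter sequences were available for 5 of the 10 genes in the RefSeq table of build GRCm38.p6 and not for Wnt5a, Fzd2, Fzd6, Lrp5 and Lrp6. Those of Wnt5b, Wnt10b, Fzd1 and Ror2 are shown, because these genes passed the test between the conditions described further on. Each run is the 250 bases before the annotated start, read 5′ to 3′ on the gene's own strand, which is the minus strand for all 4. Capitals mark a TCF/LEF core (TCAAAG) or an E-box (CANNTG) on either strand. The runs cover chr6:119544348-119544597 for the first of 3 annotated Wnt5b starts, chr15:98778151-98778400 for Wnt10b, chr5:4758217-4758466 for Fzd1 and chr13:53286125-53286374 for Ror2.
Wnt5b: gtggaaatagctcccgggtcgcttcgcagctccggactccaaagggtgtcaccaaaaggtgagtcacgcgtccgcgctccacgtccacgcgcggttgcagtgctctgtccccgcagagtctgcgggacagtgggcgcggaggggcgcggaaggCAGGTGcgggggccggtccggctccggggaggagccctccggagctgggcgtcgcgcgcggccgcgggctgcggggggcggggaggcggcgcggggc
Wnt10b: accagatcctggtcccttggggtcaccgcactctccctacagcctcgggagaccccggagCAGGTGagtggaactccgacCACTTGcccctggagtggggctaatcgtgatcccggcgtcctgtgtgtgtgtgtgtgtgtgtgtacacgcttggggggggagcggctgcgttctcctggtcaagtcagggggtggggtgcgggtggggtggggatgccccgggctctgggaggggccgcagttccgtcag
Fzd1: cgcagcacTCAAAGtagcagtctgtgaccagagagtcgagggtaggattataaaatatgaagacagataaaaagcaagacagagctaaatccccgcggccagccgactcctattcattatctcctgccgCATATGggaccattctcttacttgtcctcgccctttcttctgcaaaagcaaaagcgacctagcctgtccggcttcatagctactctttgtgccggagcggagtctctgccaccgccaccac
Ror2: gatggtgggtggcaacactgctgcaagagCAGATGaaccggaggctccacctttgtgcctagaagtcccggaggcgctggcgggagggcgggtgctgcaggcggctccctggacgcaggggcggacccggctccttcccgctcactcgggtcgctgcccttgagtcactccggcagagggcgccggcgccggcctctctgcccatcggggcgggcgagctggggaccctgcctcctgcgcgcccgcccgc

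Of these 4 windows only that of Fzd1 held TCAAAG, 242 bases before the start, and 13.8% of all 32851 windows of this length in the table held it on either strand. The third Wnt5b start had the core on its minus strand, 71 bases before the start, and the Fzd7 window had none. At least 1 E-box lay in each of the 4 windows shown and at the third Wnt5b start. None lay before Fzd7 or the second Wnt5b start, and 66.2% of all windows held at least 1. The Runx core TGTGGT, the site of the osteoblast factor family, was found in none of the 5 genes' windows and in 14.0% of all windows. The GC box GGGCGG occurred 6 times before Fzd7, 4 before Ror2, 2 before the third Wnt5b start and 1 before the first. None lay before Wnt10b, Fzd1 or the second Wnt5b start, and 32.7% of all windows held at least 1. Such matches describe the letters only.

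In GRCm38, with the GENCODE release 21 annotation, Wnt5a lies on chr14:28504750-28527448, Wnt5b on chr6:119432531-119544347 and Wnt10b on chr15:98770712-98778150. The Frizzled genes lie on chr5:4753839-4758035 (Fzd1), chr11:102604396-102608058 (Fzd2), chr15:39006034-39038188 (Fzd6) and chr1:59482424-59486955 (Fzd7). The co-receptors lie on chr19:3584828-3686564 (Lrp5), chr6:134446476-134566965 (Lrp6) and chr13:53109312-53286124 (Ror2). The counts are per gene over its exons, and the strand setting of the counting is not given. Wnt5a shares 358 exon bases with the antisense gene Gm2670, which had 0 to 12 counts per library, and Fzd6 shares 152 with the antisense gene Gm26704, which had 0 to 4.

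Macf1 checks the labels, and it showed no change that passed at days 0, 3 and 5. It had 157 and 163, 172 and 169.9 and 169 and 181 CPM (counts relative to the library total, scaled between libraries by the trimmed mean of M values) in the libraries labelled knockdown at days 0, 3 and 5, against 154 and 159.8, 189 and 55.2 and 176 and 205 CPM in control. The log2 fold change averaged over these days was 0.13 (SE 0.24, adjusted p = 0.724). Without the control library of 55.2 CPM, described next, it was -0.08 (adjusted p = 0.274). At day 10, with 1 library per condition, Macf1 had 129 CPM in the library labelled knockdown and 196 CPM in control. The directions below are therefore those of the labels.

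The libraries labelled knockdown held 13096527 to 23301514 counts and 6 of the control libraries 12590033 to 20124104. The other, control day 3 replicate 2, held 8044687 and stood apart. Ribosomal protein genes took 17.8% of its counts, against 5.29% to 10.4% in the other 13 libraries, and its log2 CPM correlated with that of its replicate with r = 0.928 over all genes tested, and those of the 5 other pairs with 0.991 to 0.993. The difference within that pair also ran with exon length across genes (Spearman rho -0.42, against -0.03 to 0.11 in the other pairs). The averages of the 10 genes and the counts of calls are therefore given over all 14 libraries and over the 13 without this library, where the day 3 control group is 1 library assumed to vary like the other groups. Apart from this library, the ribosomal protein share also differed by condition, with 5.29% to 7.44% in libraries labelled knockdown and 7.55% to 10.4% in control, and its part in the results was not tested. All 7 osteoblast markers had a median over 1 RPKM (reads scaled to exon length and to library size). Their sum was 2208 to 4144 RPKM in libraries labelled knockdown and 1427 to 7008 RPKM in control. By the medians of the conditions, Ibsp, a matrix protein of mineralizing bone, had 42.9 RPKM in libraries labelled knockdown and 523 RPKM in control. Alpl, the phosphatase of mineralization, had 7.68 RPKM in libraries labelled knockdown and 35.4 RPKM in control, and Bglap, the osteocalcin gene, had 10.5 RPKM in libraries labelled knockdown and 0.74 RPKM in control. None of the 5 adipocyte, 5 blood and 5 endothelial markers did, and their summed level stayed under 1 RPKM in every library. Plin1 and Lep, markers of adipocytes, were at 0 in every library. Of 5 muscle markers 1, Des, had a median over 1 RPKM, with Myod1 and Myf5 at 0 in every library, and their sum was 1.31 to 3.40 RPKM in libraries labelled knockdown and 0.34 to 1.04 RPKM in control. Of 5 chondrocyte markers 2 did, Col2a1 and Sox9, the 5 summing to 44.2 to 72.3 RPKM in libraries labelled knockdown and 30.8 to 71.4 RPKM in control. The part of these markers in the results was not tested.

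The odd library touched the 10 genes unequally. The ratio of its CPM to that of control day 3 replicate 1 fell outside the range of the other 5 replicate pairs for 9 of the 10 genes, below it for 6 and above it for 3. It was 0.316 for Fzd7, 0.405 for Fzd1 and 0.435 for Lrp6, 0.552 for Wnt10b and 0.564 for Wnt5a. It was 1.62 for Wnt5b and 1.81 for Fzd2. The exception was Fzd6 at 0.885, within the range of 0.854 to 1.75 set by the other pairs. No share of all genes outside their range is given, and whether 9 of the 10 is unusual was not tested. Statements on the control cells at day 3 rest on this pair, and most of all for Fzd1, Fzd7 and Lrp6.

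**Figure D1:**
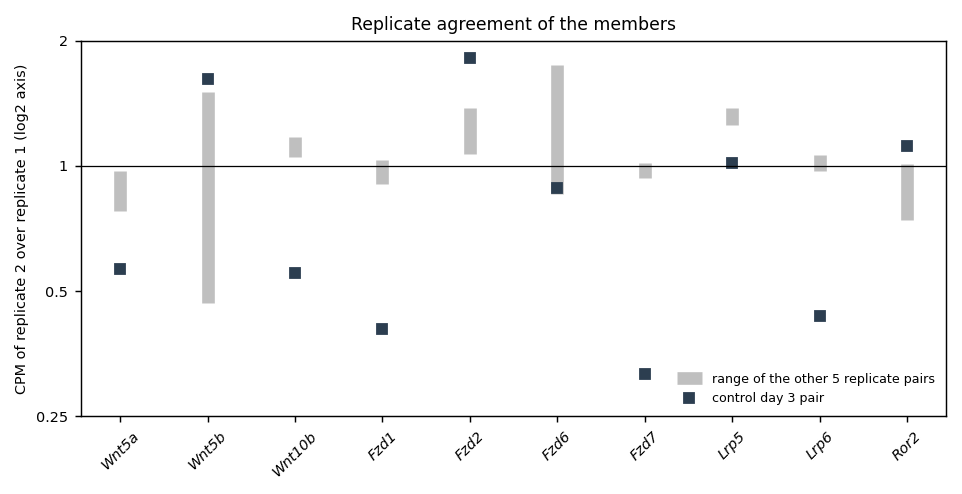
CPM of replicate 2 over replicate 1 for each of the 10 genes on a log2 axis; squares stand for the control pair of day 3 and grey bars for the range of the other 5 pairs. Fzd7 at 0.316, Fzd1 at 0.405 and Lrp6 at 0.435 sit far under their bars, and Fzd2 at 1.81 sits above its bar.

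Averaged over days 0, 3 and 5, 2 of the 10 genes were higher and 4 lower in the libraries labelled knockdown. The ligand Wnt10b and the receptor Fzd6 rose, and the ligand Wnt5b, the receptors Fzd1 and Fzd2 and the co-receptor Ror2 fell. Among all 13130 genes tested, 26.9% passed the same test, 15% higher and 11.9% lower. The median log2 fold change was -0.20 over the 10 genes and -0.00 over all genes tested. Over 13 libraries, 2 rose and 5 fell, Fzd7 being the added one, while 47.1% of all genes passed, 24.9% higher and 22.2% lower. All 10 genes passed the filter of at least 10 counts in at least 2 libraries. In such bulk RNA, fewer cells that carry a transcript and less of it per cell cannot be told apart.

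**Figure D2:**
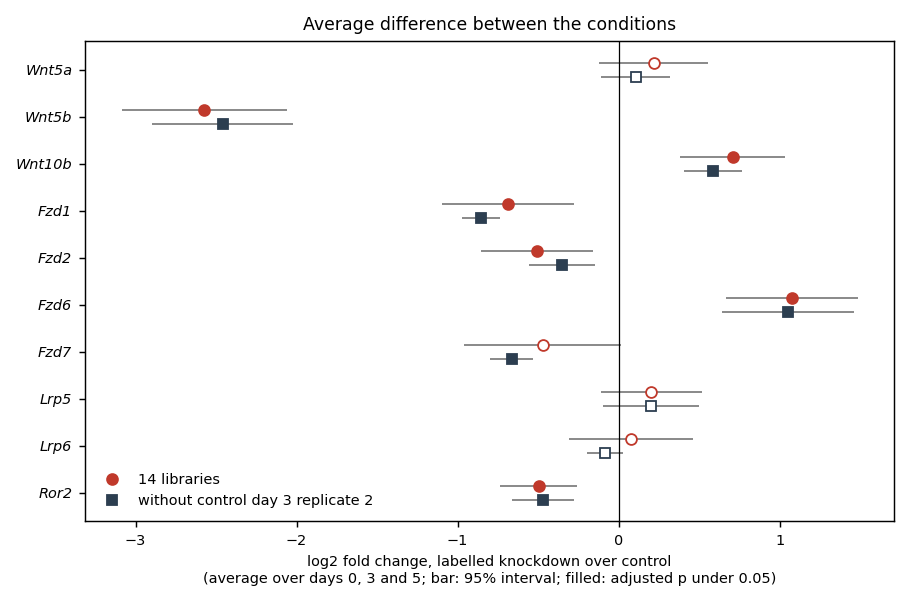
Log2 fold change of each gene, libraries labelled knockdown over control, averaged over days 0, 3 and 5; circles are the fit to 14 libraries, squares the fit without control day 3 replicate 2, bars the 95% intervals, and filled symbols have an adjusted p under 0.05. Wnt5b stands at -2.57 and Fzd6 at 1.08, and Fzd7 is the gene whose symbol fills only without that library.

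Wnt5b, a ligand of the branch without beta-catenin, showed the widest gap of the 10. Libraries labelled knockdown had 1.63 and 0.765 CPM on day 0, 0.910 and 1.13 CPM on day 3 and 1.47 and 2.22 CPM on day 5, from 11 to 35 counts per library. Control libraries had 7.65 and 9.46 CPM, 5.27 and 8.52 CPM and 9.27 and 7.32 CPM at those days, from 58 to 166 counts. The groups did not overlap at any day, and the highest library labelled knockdown lay below the lowest control library. The average log2 fold change of Wnt5b was -2.57 (SE 0.23, adjusted p = 3.89e-05), a level 0.168 times that of control. The value was -2.80 at day 0 (adjusted p = 0.00224), -2.73 at day 3 (0.00356) and -2.19 at day 5 (0.00661). Leaving out the odd library gave -2.46 for the average (adjusted p = 1.89e-06) and -2.38 for day 3 (0.00179). The average passed under all 20 alternative settings, as did day 0 under all 19. Day 3 lost its call without knockdown day 3 replicate 1 (adjusted p = 0.0545), and day 5 without control day 5 replicate 1 (0.0570) or knockdown day 5 replicate 1 (0.0925).

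Wnt10b, a canonical ligand that favours osteoblasts over adipocytes in mouse bone, was the ligand that rose. It had 26.4 and 31.0 CPM on day 0, 24.8 and 28.6 CPM on day 3 and 33.7 and 36.4 CPM on day 5 in libraries labelled knockdown, against 12.8 and 13.4 CPM, 25.3 and 14.0 CPM and 22.3 and 25.1 CPM in control. No overlap was seen at days 0 and 5, with the libraries labelled knockdown higher, and at day 3 the first control library lay between the 2 libraries labelled knockdown. Averaged over the days, the log2 fold change of Wnt10b was 0.71 (SE 0.15, adjusted p = 0.0062), or 1.63 times control, and 0.59 (adjusted p = 0.000126) over 13 libraries. The gap passed at day 0 (log2 1.13, SE 0.25, adjusted p = 0.0255), as it did under 8 of 19 alternatives, with adjusted p reaching 0.185 without control day 0 replicate 1. At day 3 it was 0.43 (adjusted p = 0.266) and 0.08 (0.769) without the odd library. At day 5 it was 0.56 (0.230), and passed over 13 libraries (0.56, 0.00672). The average passed under all 20 alternatives.

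Wnt5a, the closest relative of Wnt5b and an activator of Ror2, did not pass on average. It had 12.4 and 11.5, 16.7 and 13.8 and 16.6 and 16.1 CPM at days 0, 3 and 5 in libraries labelled knockdown and 14.6 and 13.7, 15.4 and 8.67 and 12.3 and 9.58 CPM in control. The groups did not overlap at day 0, with the libraries labelled knockdown lower, nor at day 5, with them higher. Over days 0, 3 and 5, the mean log2 fold change of Wnt5a was 0.22 (SE 0.15, adjusted p = 0.317), with a 95% interval of -0.12 to 0.55, and 0.11 (adjusted p = 0.406) over 13 libraries. The day 3 value of 0.32 (adjusted p = 0.426) was -0.01 (0.982) over 13 libraries, and the day 5 value of 0.58 (adjusted p = 0.243) passed over 13 libraries (0.56, adjusted p = 0.0182). Without control day 3 replicate 1, in which case the odd library alone stands for its group, day 5 passed as well (0.57, adjusted p = 0.0179) and so did the average at 0.38 (adjusted p = 0.00972). The ratio of Wnt5a to Wnt5b in RPKM was 2.76 to 6.91 in libraries labelled knockdown and 0.387 to 1.10 in control, with no overlap.

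Fzd1, a Frizzled of the canonical branch, had the highest median RPKM of the Frizzleds in both conditions. It had 64.9 and 62.9 CPM on day 0, 57.5 and 59.3 CPM on day 3 and 54.7 and 49.4 CPM on day 5 in libraries labelled knockdown, against 161 and 159 CPM, 75.9 and 30.7 CPM and 95.9 and 93.4 CPM in control. Values in the libraries labelled knockdown kept to a narrow band, and at days 0, 3 and 5 every control library except the odd one exceeded them. At day 0 the log2 fold change was -1.32 (SE 0.32, adjusted p = 0.0362), or 0.400 times control, a call that held under 6 of 19 alternatives, with adjusted p reaching 0.222 without knockdown day 0 replicate 2. The average log2 fold change of Fzd1 was -0.69 (SE 0.18, adjusted p = 0.0212) over 14 libraries and -0.86 (SE 0.05, adjusted p = 2.15e-07) over 13. At day 3 the sign turned on 1 library, with 0.12 (adjusted p = 0.818) over 14 libraries, -0.38 (0.0256) without the odd library and 0.93 (5.28e-05) without its replicate. At day 5 the value was -0.86 (0.149), and -0.87 (2.27e-05) over 13 libraries.

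Fzd7, a Frizzled known from the maintenance of stem cells in the mouse intestine, differed in the same sense wherever the odd library was not involved. It had 24.5 and 23.0, 26.6 and 26.3 and 24.5 and 23.1 CPM in libraries labelled knockdown at days 0, 3 and 5, against 41.5 and 39.5, 37.2 and 11.8 and 39.1 and 39.7 CPM in control. All libraries but the odd one kept close to the level of their condition, whatever the day. Averaged over the days, the log2 fold change of Fzd7 was -0.47 (SE 0.22, adjusted p = 0.139) and did not pass. Over 13 libraries it fell by 0.67 (SE 0.06, adjusted p = 5.46e-06), with -0.77, -0.49 and -0.73 at days 0, 3 and 5, each past the threshold (adjusted p = 0.000178, 0.0143 and 0.000236). With all 14 libraries the day 3 value was 0.08 (adjusted p = 0.900), and 1.17 (5.68e-05) without control day 3 replicate 1.

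Fzd2, a receptor of Wnt5a among other ligands, had 33.9 and 36.2 CPM on day 0, 23.9 and 32.9 CPM on day 3 and 24.5 and 26.6 CPM on day 5 in libraries labelled knockdown. Control libraries had 49.2 and 55.4 CPM, 29.3 and 53.2 CPM and 31.2 and 37.0 CPM. There was no overlap at days 0 and 5, where the libraries labelled knockdown were lower, and the groups overlapped at day 3. Over days 0, 3 and 5, the mean log2 fold change of Fzd2 was -0.51 (SE 0.16, adjusted p = 0.0361), and -0.35 (adjusted p = 0.0089) over 13 libraries. No single day passed over 14 libraries, and day 0 did over 13 (-0.57, adjusted p = 0.0126). At day 3 the value was -0.53 (adjusted p = 0.205) over 14 libraries and -0.05 (0.865) over 13.

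Fzd6, a receptor of planar cell polarity in mouse hair patterning, rose. It had 3.10 and 3.48 CPM on day 0, 4.75 and 6.72 CPM on day 3 and 5.97 and 5.10 CPM on day 5 in libraries labelled knockdown, against 1.39 and 2.43 CPM, 1.99 and 1.76 CPM and 3.07 and 3.04 CPM in control. Without overlap at any of these days, the libraries labelled knockdown were higher. These levels rest on 50 to 142 counts per library labelled knockdown and 12 to 55 per control library. The average log2 fold change of Fzd6 was 1.08 (SE 0.18, adjusted p = 0.00214), or 2.11 times control, and 1.05 (adjusted p = 0.000721) over 13 libraries. Day 3 passed on its own (1.58, SE 0.33, adjusted p = 0.0160), but not without knockdown day 3 replicate 2, where its adjusted p was 0.118. Over 13 libraries day 3 (1.51, adjusted p = 0.0154) and day 5 (0.85, 0.0356) passed.

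The averages of Fzd6, Wnt5b, Wnt10b and Ror2 passed under each of the 20 alternative settings, but those of Fzd1 and Fzd2 did not. Fzd1 passed in 7 of the 20 and Fzd2 in 8. Among the 12 settings that leave out 1 library, Fzd1 passed in 2 and Fzd2 in 3. Over all 20, adjusted p was highest with limma on log2(RPKM + 1) without a filter, at 0.209 for Fzd1 and 0.126 for Fzd2. The value of Fzd1 stayed between -1.09 and -0.42 and that of Fzd2 between -0.64 and -0.35 over all 20.

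Ror2, the tyrosine kinase co-receptor of Wnt5a, fell. It had 17.6 and 16.9, 26.7 and 24.7 and 26.8 and 19.9 CPM at days 0, 3 and 5 in libraries labelled knockdown, against 26.6 and 23.7, 34.5 and 38.5 and 31.6 and 31.9 CPM in control. The groups did not overlap on any day, with the libraries labelled knockdown lower, although both conditions were higher at days 3 and 5 than at day 0. Averaged over the days, the log2 fold change of Ror2 was -0.50 (SE 0.11, adjusted p = 0.0077), or 0.709 times control, and -0.47 (adjusted p = 0.00108) over 13 libraries. The gap was of like size at each day (-0.54, -0.50 and -0.44), and none of the 3 passed alone over 14 libraries (adjusted p = 0.128, 0.0996 and 0.204). Over 13 libraries day 0 (-0.54, adjusted p = 0.0165) and day 5 (-0.44, 0.0333) passed, and day 3 did not (-0.42, 0.104).

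Lrp5 and Lrp6, the paired co-receptors of the canonical branch, did not pass. Lrp6 had 195 and 206, 161 and 161 and 166 and 161 CPM in libraries labelled knockdown and 200.4 and 210.4, 168 and 73.2 and 178 and 183 CPM in control. Over days 0, 3 and 5, the mean log2 fold change of Lrp6 was 0.08 (SE 0.17, adjusted p = 0.778), with a 95% interval of -0.31 to 0.46, which narrowed to -0.20 to 0.03 around -0.08 over 13 libraries. With the odd library alone at control day 3 the average passed at 0.32 (adjusted p = 0.000302). Lrp5 had 68.5 and 86.0, 53.1 and 71.3 and 55.4 and 71.0 CPM in libraries labelled knockdown and 69.8 and 90.7, 48.2 and 48.9 and 42.9 and 59.3 CPM in control. In every pair but the odd one its second replicate was 1.25 to 1.38 times its first. The average log2 fold change of Lrp5 was 0.20 (SE 0.14, adjusted p = 0.317), with a 95% interval of -0.11 to 0.52, and 0.20 over 13 libraries. With replicate number added as a block over 14 libraries, it was 0.20 (SE 0.09, adjusted p = 0.118), with a 95% interval of 0.001 to 0.394.

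**Figure D3:**
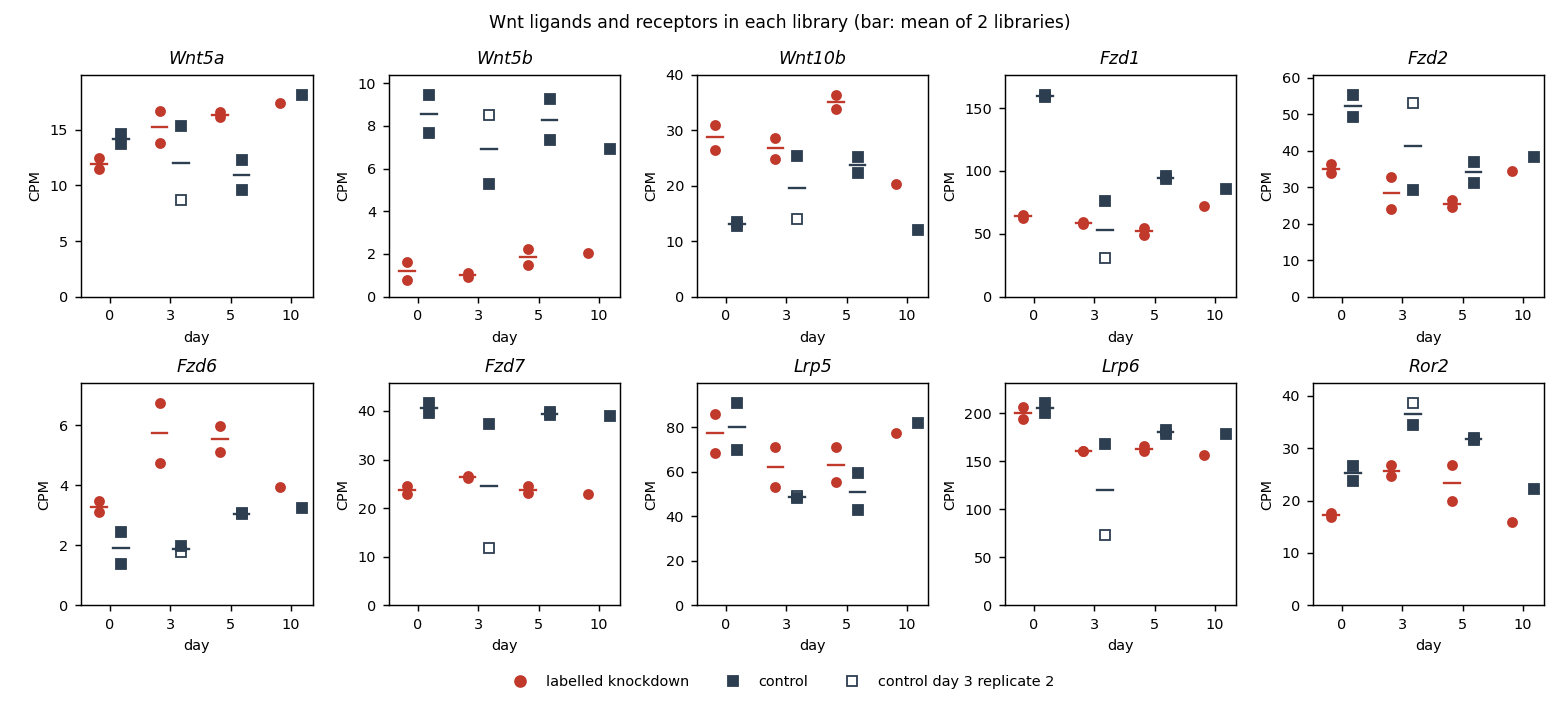
CPM of each gene in each of the 14 libraries by day, libraries labelled knockdown as circles left of control as squares; bars are means of 2 libraries, the open square is control day 3 replicate 2, and each axis starts at 0. Wnt5b and Ror2 lie below control and Fzd6 above it at every day, and for Fzd1, Fzd7 and Lrp6 the open square lies far below the other control libraries.

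Counted by overlap, 3 of the 10 genes kept the libraries of the conditions apart in 1 direction at all of days 0, 3 and 5, with Wnt5b and Ror2 below control and Fzd6 above it. Among all genes tested the share was 23.2%, with 13.7% above and 9.55% below. At single days, 3 genes passed at day 0 (7.09% of all genes did), 2 at day 3 (12.6%) and 1 at day 5 (7.78%). Over 13 libraries the numbers were 6 (28.7%), 4 (21%) and 7 (31.5%). The 7 at day 5 were Wnt5a, Wnt10b and Fzd6, higher, and Wnt5b, Fzd1, Fzd7 and Ror2, lower.

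**Figure D4:**
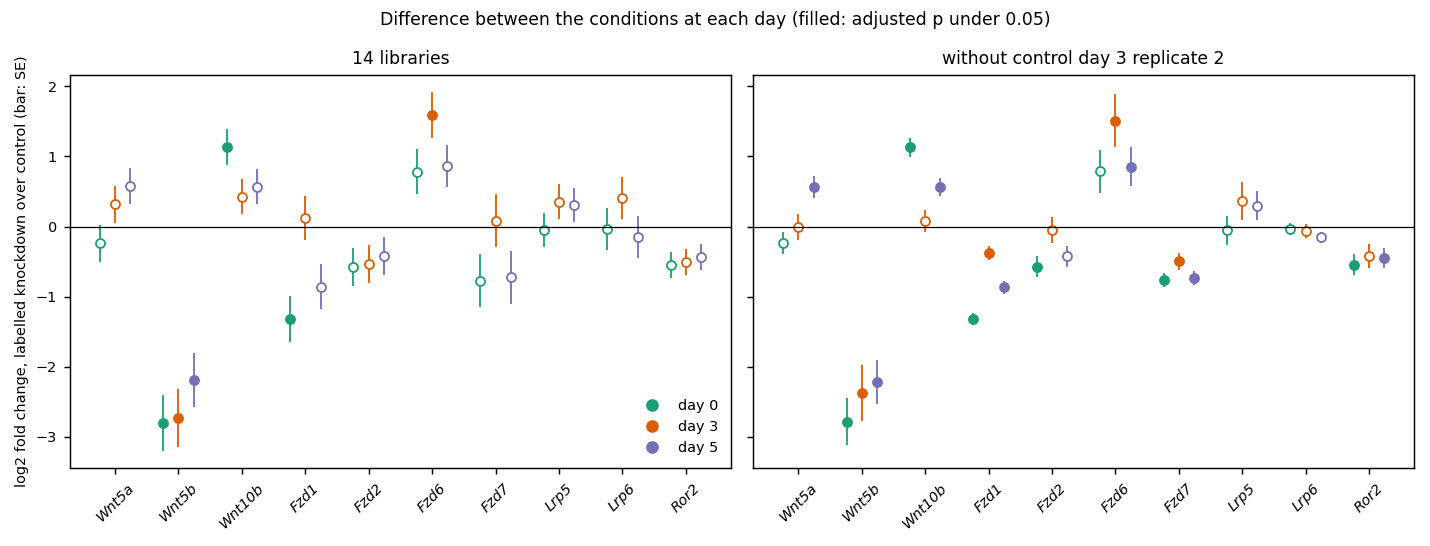
Log2 fold change, libraries labelled knockdown over control, of each gene at days 0, 3 and 5, over 14 libraries at left and without control day 3 replicate 2 at right; bars are standard errors and filled points have an adjusted p under 0.05. Fzd1 and Fzd7 at day 3 stand at 0.12 and 0.08 in the left panel and at -0.38 and -0.49 in the right one.

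Whether the gap between the conditions varied with the day was tested jointly over days 0, 3 and 5. None of the 10 genes passed (0.998% of all genes did), 1 had an unadjusted p under 0.05 and DESeq2 called 0. That gene was Fzd1 (adjusted p = 0.449). The shares of all genes refer to adjusted p in edgeR, and none is given for unadjusted p, here or below. Over 13 libraries 2 passed, Fzd1 (adjusted p = 0.00332) and Wnt10b (0.0195), against 8.62% of all genes. In these, the gap of Fzd1 was -1.32, -0.38 and -0.87 at days 0, 3 and 5, and that of Wnt10b 1.13, 0.08 and 0.56.

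With time, Fzd1 showed the largest change of the 10 genes between day 3 and day 0 in control. The log2 change of day 3 over day 0 was -1.57 (SE 0.33, adjusted p = 0.0168), and -1.06 (5.94e-05) over 13 libraries. It was the 1 gene of the 10 to pass over 14 libraries (10.7% of all genes did), and over 13 Wnt10b (0.96, adjusted p = 0.00133) and Fzd2 (-0.82, 0.00793) passed too, against 26% of all genes. The call of Fzd1 was lost without either control library of day 0, with adjusted p reaching 0.108. Lrp5 was at -0.73 (0.0833), and passed once replicate number was added as a block (-0.70, 0.0222).

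Between day 5 and day 0 none of the 10 passed in control over 14 libraries (8.13% of all genes did). Of the 10, 4 had an unadjusted p under 0.05. DESeq2 called 1 of the 10, Wnt10b, and 1679 of all genes. Over 13 libraries 4 passed (31.6% of all genes did). Wnt10b rose by 0.87 (adjusted p = 0.000547), and Fzd1 fell by 0.74 (5.52e-05), Fzd2 by 0.61 (0.00891) and Lrp5 by 0.64 (0.0444). With the block, Lrp5 passed over 14 libraries as well (-0.66, 0.0280, against -0.65, 0.147 without it). In control, Wnt10b had 22.3 and 25.1 CPM on day 5, against 12.8 and 13.4 CPM on day 0, with no overlap.

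Within the libraries labelled knockdown, Fzd6 and Ror2 had the largest changes between day 3 and day 0. Between day 3 and day 0 none passed over 14 libraries (0.906% of all genes did), 2 had an unadjusted p under 0.05 and DESeq2 called 0. Between day 5 and day 0 the numbers were the same, against 2% of all genes. The 2 genes with an unadjusted p under 0.05 were Fzd6 (0.80 and 0.76) and Ror2 (0.58 and 0.44) in both cases. Over 13 libraries Ror2 rose by 0.59 (adjusted p = 0.0202) and Lrp6 fell by 0.31 (0.0281) at day 3, when 14.7% of all genes passed. At day 5, Fzd1 fell by 0.29 (0.0426) and Lrp6 by 0.29 (0.0333), against 15.6% of all genes.

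At day 10, with 1 library per condition, there is no replicate and no test. The library labelled knockdown was below the control library for 8 of the 10 genes and above it for 2. No share of all genes is given for this day, and whether that count is unusual was not tested. Wnt5b had 2.03 CPM in the library labelled knockdown and 6.92 CPM in control, a ratio of 0.294, and Fzd7 had 22.8 CPM in the library labelled knockdown and 38.9 CPM in control, a ratio of 0.587. Wnt10b had 20.2 CPM in the library labelled knockdown and 11.9 CPM in control, a ratio of 1.69. These 3 genes kept the direction of their averages over 13 libraries, as did Fzd1, Fzd2, Fzd6, Lrp6 and Ror2. Wnt5a and Lrp5 did not. The ratio was 1.22 for Fzd6, 0.713 for Ror2 and 0.841 for Fzd1. The other 4 genes lay between 0.877 and 0.960.

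Levels of different genes can be compared only per exon length, in RPKM. By the median over the 7 libraries of a condition, Lrp6 came first with 15.9 RPKM in libraries labelled knockdown, followed by Fzd1 with 14.2 RPKM, Wnt10b with 12.3 RPKM and Lrp5 with 11.1 RPKM. In control Fzd1 came first with 20.9 RPKM, before Lrp6 with 16.7 RPKM, Fzd2 with 9.54 RPKM and Lrp5 with 9.32 RPKM, and Wnt10b was in seventh place with 5.48 RPKM. At the low end, Wnt5a, Fzd6 and Wnt5b had 2.15, 1.10 and 0.52 RPKM in libraries labelled knockdown and 1.86, 0.56 and 2.60 RPKM in control. Neighbours such as Fzd2 and Lrp5 in control, or Lrp6 and Fzd1 in libraries labelled knockdown, had ranges over libraries that overlapped. Over the 13 libraries without the odd one, Wnt5b spanned 12.1-fold from its lowest to its highest library and Lrp6 1.42-fold, the widest and narrowest of the 10.

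The composition of the family followed these levels. Of 19 mouse Wnt genes, 15 were among the genes analysed and 6 had a median over 1 RPKM, namely Wnt10b, Wnt10a, Wnt6, Wnt9a, Wnt5a and Wnt5b. Wnt10b made up 40.0% and 43.0% of the summed ligand RPKM at day 0 in libraries labelled knockdown, against 26.6% and 26.7% in control. Wnt5b made up 2.16% and 0.934% in libraries labelled knockdown at that day, against 14.0% and 16.6% in control. Over all days its share was 0.934% to 2.84% in libraries labelled knockdown and 6.85% to 16.6% in control, with no overlap. Wnt10b's share of 32.2% to 43.4% in libraries labelled knockdown overlapped the 14.7% to 37.3% of control.

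Of the 10 Frizzled genes, 5 had a median over 1 RPKM, Fzd1, Fzd2, Fzd7, Fzd5 and Fzd8. The summed level of all 10 Frizzled genes at day 0 was 34.5 and 35.2 RPKM in libraries labelled knockdown, against 64.3 and 69.0 RPKM in control. Over all days it was 30.4 to 36.3 RPKM in libraries labelled knockdown and 40.6 to 69.0 RPKM in the 6 control libraries other than the odd one, which had 23.2 RPKM. Fzd1's share at day 0 was 42.7% and 41.3% in libraries labelled knockdown and 54.6% and 52.2% in control. Fzd6's share was 2.06% to 4.49% in libraries labelled knockdown and 0.482% to 1.62% in control. In the odd library Fzd2, at 46.3%, took the place of Fzd1, at 23.4%.

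**Figure D5:**
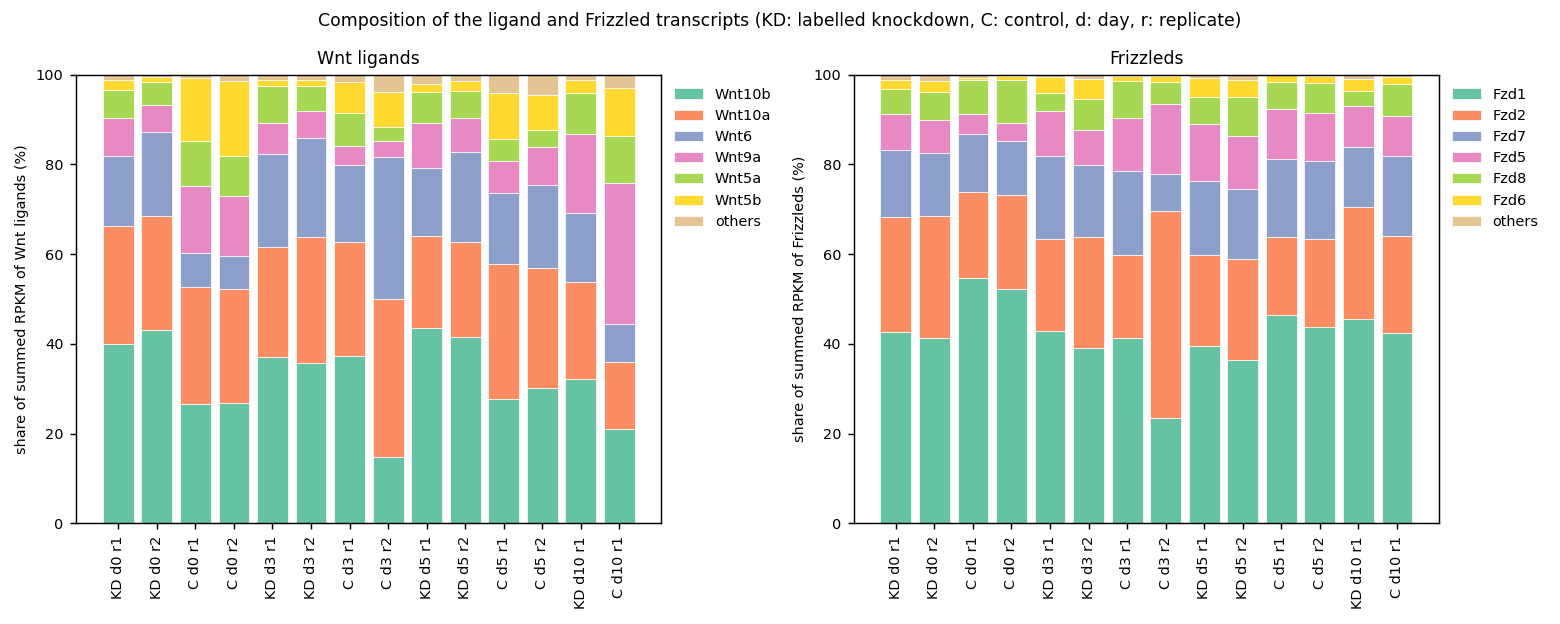
Share of each gene in the summed RPKM of Wnt ligands (left) and Frizzleds (right), 1 stacked bar per library, libraries labelled knockdown left of control within each day. The Wnt5b segment is 0.934% to 2.84% in libraries labelled knockdown and 6.85% to 16.6% in control, and the Frizzled bar of control day 3 replicate 2 differs from all others by its large Fzd2 segment of 46.3%.

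Other genes of the pathway, taken from lists by function, are given for the average over days with the same background of 26.9%, or 47.1% for calls over 13 libraries. Of 6 other Wnt ligands tested 0 passed with edgeR, 0 had an unadjusted p under 0.05 and DESeq2 called 0, and over 13 libraries Wnt6 rose (0.72, adjusted p = 0.00186). Among the 6, Wnt7b and Wnt11 had a group at 0 counts, and the edgeR average could not judge them (SE 4306 and 1801). At days 0, 3 and 5 they averaged 0.0301 and 0.0994 CPM in libraries labelled knockdown and 0.637 and 0.923 CPM in control. Of 4 other receptors of the Frizzled class 2 fell, Fzd5 (-0.43, 0.00771) and Fzd8 (-0.82, 0.0283). Of 5 other co-receptors 2 fell, Ror1 (-1.41, 0.00959), a relative of Ror2 that also binds Wnt5a, and Ptk7 (-0.36, 0.0127), a pseudokinase of planar polarity. The list medians were 0.00 for the ligands, with or without Wnt7b and Wnt11 (each with a group at 0 counts) at their bound, -0.17 for the Frizzled class and -0.18 for the co-receptors.

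Of 6 genes of Wnt secretion and release 1 rose and 3 fell. Wls, which carries Wnts to the cell surface, rose by 0.70 (adjusted p = 0.0190), and Notum, which removes their lipid, fell by 1.17 (0.00386). The glypicans Gpc1 and Gpc6 fell by 0.44 (0.0202) and 0.59 (0.0210). Of 6 genes that set the turnover of Frizzleds 2 fell, Rnf43 (-2.78, 8.88e-05), a ligase that removes Frizzleds from the surface and is induced by the canonical branch, and Rspo2 (-0.66, 0.00671), a secreted protein that counters such ligases. Of 10 Dishevelled and planar polarity genes 2 rose, Daam1 (1.28, 0.00135) and Vangl1 (0.65, 0.00121). The list medians were -0.51 for secretion, -0.10 for turnover and 0.06 for polarity. The calls of these 6 lists held over 13 libraries, where 47.1% of all genes passed and Kremen1, Rspo3 and Daam2 were also higher and Lrp4 and Prickle1 also lower.

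Of 5 feedback targets of the canonical branch 4 fell, with a list median of -1.88. They were Axin2 (-0.84, adjusted p = 0.00808), Lef1 (-1.88, 5.68e-05), Tcf7 (adjusted p = 0.0211) and Nkd2 (0.000713). Tcf7 had 0 to 10 counts in libraries labelled knockdown and 0 to 124 counts in control. Nkd2 had 0 to 19 counts in libraries labelled knockdown, 0 in both of day 0, and 5 to 84 counts in control, and the list median is the same with it at its bound. All 4 passed over 13 libraries as well, with -0.99 for Axin2 and -1.95 for Lef1.

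Genes most like the members of the family were sought by Pearson's r of log2 CPM over the 13 libraries, among 9593 or 9594 genes with a mean of at least 5 CPM. These libraries share conditions and days, so that any gene that differs between the conditions alike scores high. Wnt5b was nearest to Col5a1 (r = 0.955), Wnt10b to Vps36 (0.949) and Zmat3 (0.942), and Wnt5a to Rnd3 (0.947). Fzd1 was nearest to Vapb (0.965), Fzd2 to Smad3 (0.948), Fzd6 to Slc35e2 (0.930) and Fzd7 to Cct7 (0.980). Lrp6 was nearest to Sptan1 (0.952) and Ror2 to Bora (0.961). With the odd library added, Zmat3 and Slc35e2 stood first for their genes (0.944 and 0.934), and r was 0.970 for Sptan1, 0.946 for Bora, 0.882 for Col5a1, 0.836 for Rnd3 and 0.802 for Vps36. It dropped to 0.411 for Smad3, 0.307 for Vapb and 0.0528 for Cct7.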

How the data were processed

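Polyadenylated RNA of 14 MC3T3-E1 libraries was sequenced. Per the labels' protocols the libraries were directional. Build GRCm38 and the tools bcl2fastq, TopHat2 and edgeR are named, without versions or roles, per the submitters' processing notes. The authors deposited raw counts per gene and RPKM values. The 1 row without a gene symbol held at most 0.00524% of a library's counts.

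A filter of 10 or more counts in 2 or more libraries kept 13130 genes for testing and left out 11216. A mean for each of 8 groups was fitted in edgeR 4.0.16 (R 4.3.3, TMM scaling, quasi-likelihood test with 6 residual degrees of freedom), with Benjamini-Hochberg adjustment over all genes tested and a threshold of 0.05. CPM carry this scaling. The script was first tested on simulated counts. Alternatives were other scaling, DESeq2 1.42.0, no filter, limma 3.58.1 on log2 of the deposited RPKM plus 1 or 0.1, the replicate number as a block, each library left out, and day 3 left out. Replicate pairs differed beyond counting noise (chi-square per degree of freedom 174.9 between the control libraries of day 3 and 12.7 to 38.3 elsewhere), and each library was counted. Same-numbered libraries deviated together at days 0, 3 and 5 (r = 0.329, 0.158 and 0.326 across genes), as did some of different days (0.0287 to 0.406). The labels give the numbers and no shared source.

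The named genes are all 10 members, Macf1, called genes of the lists and the nearest genes by correlation. The nearest gene of Lrp5 is not reported here. The members and lists were chosen with earlier results of these data known.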

Additional observations from a re-analysis of the deposited data

How the results depend on the processing

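Over the 20 alternative settings, the averages of Wnt5b, Wnt10b, Fzd6 and Ror2 kept direction and call. The values compared next include the adjusted p of the test between days, which have no sign to change. Of 1720 values compared, 31 changed sign, 2 of them with a call, those of Fzd1 (-0.38) and Fzd7 (-0.49) at day 3 without control day 3 replicate 2, against 0.93 and 1.17 without replicate 1 and 0.12 and 0.08 with both. In all, 56 calls of the 10 genes were lost and 68 gained, 34 of the gains without control day 3 replicate 1 and 22 without replicate 2. The common dispersion was 0.0474 over 14 libraries and 0.0115 over 13.

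Of the 10 genes, 3 passed at day 0 and 1 did with limma on RPKM under each pseudocount and without its filter, where 766, 710 and 651 of all genes passed, against 931 in edgeR. At day 5, 2 passed without the filter on low counts, with 1319 of all genes against 1022. For control day 3 against day 0, 3 passed with DESeq2 and without the filter, 2 with the replicate block (1756 of all genes, against 1411) and 0 with limma without a filter. For control day 5 against day 0, 1 passed with DESeq2, without the filter (1503 of all genes, against 1068) and with the replicate block (1345). For the test between days, 1 passed without the filter. The counts over all genes for the other settings are given further on. The block changed no other call of the 10 genes, and the cause of these moves was not tested.

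Leaving out 1 library gave 4 to 8 of the 10 genes for the average (2392 to 7593 of all genes), 1 to 6 at day 0 (367 to 3750), 1 to 9 at day 3 (358 to 7706) and 0 to 7 at day 5 (337 to 4123). It gave 0 to 5 and 0 to 4 for control at days 3 and 5 against day 0 (197 to 7176 and 329 to 4130 of all genes). It gave 0 to 2 for each change in the libraries labelled knockdown (13 to 1937 and 36 to 2038 of all genes), and 0 to 4 between days (43 to 6508). Without either control library of day 3 left out, the ranges were 4 to 5, 1 to 2, 1 to 2 and 0 to 1 for the average and days 0, 3 and 5, 0 to 1 for control day 3, and 0 for the rest, with all-gene counts of 2392 to 2542, 367 to 696, 358 to 926 and 337 to 758 for the average and days 0, 3 and 5. In these fits a group left with 1 library is assumed to vary like the others.

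Over all genes, DESeq2 called 1469, 2804 and 1607 at days 0, 3 and 5, against 931, 1652 and 1022 in edgeR. It called 2578 and 1679 for control at days 3 and 5 against day 0 (1411 and 1068), 460 and 612 for the libraries labelled knockdown (119 and 262) and 432 between days (131). Without the filter the counts were 2827 at day 3, 2538 for control day 3, 334 and 509 for the libraries labelled knockdown and 643 between days. With limma they were 70, 159 and 86 for these last 3 at a pseudocount of 0.1, and 1035, 657 and 645 at day 3 and for control days 3 and 5 with no filter. Without day 3, 5366 passed for the average, against 3530. On the RPKM scale the median of all genes at day 3 was 0.19, and within 0.08 of 0 elsewhere. Depth limits Wnt5b, with 11 to 35 counts in libraries labelled knockdown, and Fzd6, with 12 to 63 counts in control.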
